A study of Homo sapiens with 16 samples.

Results

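The genes described here encode the MuvB core of the DREAM complex (LIN9, LIN37, LIN52, LIN54 and RBBP4), the pocket proteins p107 (RBL1) and p130 (RBL2), the E2F partner DP1 (TFDP1), and the transcription factors B-MYB (MYBL2) and FOXM1. They were taken by symbol, and all 10 were found, each as 1 gene, among the 26410 genes measured. RNA was sequenced from SH-SY5Y, a human neuroblastoma cell line, in 16 libraries of 4 groups with 4 libraries each. Scr cells carried a Cas9 vector with a scrambled guide and came as clones Scr13 and Scr16, and TRPM2 KO cells carried the same vector with a guide against the calcium channel gene TRPM2 and came as clones KO11 and KO28. Each clone grew from a single cell, and every clone had received a donor with GFP and puromycin resistance and was selected with puromycin. Each clone was sequenced as 2 replicates without treatment and as 2 replicates after 24 h of doxorubicin, a DNA-damaging chemotherapy drug, at 0.3 µM according to the sample labels, while the design text of the data set gives 3 µM.

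DREAM and MuvB are known as a switch for cell cycle genes. In resting cells and after p53 activation, the MuvB core joins p130 or p107 with E2F4 or E2F5 and DP1, and the assembled DREAM complex represses genes of both the G1/S and the G2/M phases. The p53 target p21 (CDKN1A) favours this form, since it inhibits the cyclin-dependent kinases that phosphorylate p107 and p130, and DYRK1A phosphorylates LIN52, which lets the core bind the pocket proteins. In cycling cells, B-MYB and then FOXM1 bind the same core and activate G2/M genes, so that the core serves repression and activation in turn. E2F and DP1 bind E2F sites, and LIN54 binds an element called CHR (cell cycle genes homology region) in G2/M promoters.

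TRPM2 was read first, as the edited gene. Without treatment, it had 1.93 and 2.23 normalized CPM (reads scaled to a common library size) in KO11 and 1.41 and 2.19 in KO28. It had 0.118 and 0.115 in Scr13 and 0 reads in both libraries of Scr16, so that all 4 Scr libraries lay at or under the floor of 3 reads (0.118 to 0.184 normalized CPM), a limit that covers counting error only. After doxorubicin, it had 1.22 and 1.83 in KO11, 1.37 and 0.658 in KO28, 0.0594 and 0.0631 in Scr13, and 1.33 and 0.390 in Scr16. The groups did not overlap without treatment and overlapped after doxorubicin. No test is given, since TRPM2 reached 1 normalized CPM without treatment in the libraries labelled KO alone and would be tested through the group where it is high. Reads were thus higher in the untreated libraries labelled KO. Since reads were counted per gene, with no view of the edited stretch, the TRPM2 count alone does not settle the labels. The study's methods state that the cells were authenticated by RT-PCR and Western blotting. They describe a deletion at the start of the coding sequence, with the rest frameshifted. The groups are called libraries labelled KO and Scr libraries throughout.

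Markers of adrenergic neuroblastoma cells, other than TH and CHGA, were high in every library. Over all 13 genes the sum was between 8211 and 9682 normalized CPM. STMN2, a neuronal tubulin regulator, was the most abundant at 1379 to 1838. TH was under 1 normalized CPM in each group's mean. CHGA had group means between 0.898 and 7.92 normalized CPM, with 26.4 in replicate 2 of untreated KO11. Fibroblast markers were higher as a sum in the libraries labelled KO, with overlap without treatment and with none after doxorubicin. Their sum over 8 genes was 190.1 to 355 normalized CPM in the untreated Scr libraries, 343 to 467 in the untreated libraries labelled KO, 175 to 237 in Scr after doxorubicin and 344 to 446 in the libraries labelled KO after doxorubicin. Among them, COL3A1 was the most abundant, at 6.88 to 215 normalized CPM, and no marker was at 3 reads or fewer in all 16 libraries. COL3A1 stood at 139 and 10.8 in the untreated libraries of Scr13. Other abundant markers differed less. THY1 had means of 104 in Scr and 107 in the libraries labelled KO without treatment, and 81.2 and 89.3 after doxorubicin. For PDGFRB the means were 75.2 and 79.3 without treatment, and 67.5 and 77.7 after doxorubicin. Of the 8 tested without treatment, 5 were higher in the libraries labelled KO, where 4.84% of all genes tested passed in either direction. After doxorubicin 4 of 7 were higher, where 8.69% of all genes tested passed. Some were tested through the libraries labelled KO alone, since no Scr library reached 1 normalized CPM: DCN without treatment, and DCN and LUM after doxorubicin. Without them the counts were 4 of 7 and 2 of 5. Their part in the genotype differences given here was not tested. Of the blood markers, 3 of 6 were found, with a sum of at most 1.67 normalized CPM and LYZ at 3 reads or fewer in all libraries, and of the endothelial markers 2 of 4 were found, with a sum of at most 2.38.

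The promoters of these genes and of the genes they act on differ in the elements they hold. RefSeq promoter windows on GRCh38.p14, from 250 bases before to 50 bases after a start, were searched on both strands for 4 E2F forms (TTTCCCGC, TTTCGCGC, TTTGCCGC and TTTGGCGC), an E2F core (GGCGGGA, added after the first search was seen), CHR (TTTGAA or TTCGAA), a MYB element (AACGG) and a forkhead element (TGTTTAC or TGTTTGC). A core can overlap an E2F form, the E2F forms can overlap each other on opposite strands, and the windows of 1 gene can share bases. Windows were found for 9 of the 10 genes, 15 in all, and not for FOXM1. The sequences printed here are the 160 bases before the RefSeq start, chosen because MYBL2 and RBL1 carry an E2F match, MCM6 is a G1/S gene with repeated E2F matches, and CDC20, PLK1 and CENPA are G2/M genes with a CHR. Capitals mark the E2F forms, the E2F core or CHR.
MYBL2 (chr20:43666954-43667113, + strand): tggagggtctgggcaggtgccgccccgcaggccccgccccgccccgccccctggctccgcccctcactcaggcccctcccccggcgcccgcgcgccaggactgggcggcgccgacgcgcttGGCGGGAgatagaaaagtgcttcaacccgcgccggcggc
RBL1 (chr20:37095998-37096157, - strand): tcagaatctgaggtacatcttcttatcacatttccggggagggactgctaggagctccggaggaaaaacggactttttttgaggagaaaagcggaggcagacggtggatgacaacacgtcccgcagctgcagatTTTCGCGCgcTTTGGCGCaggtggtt
MCM6 (chr2:135876444-135876603, - strand): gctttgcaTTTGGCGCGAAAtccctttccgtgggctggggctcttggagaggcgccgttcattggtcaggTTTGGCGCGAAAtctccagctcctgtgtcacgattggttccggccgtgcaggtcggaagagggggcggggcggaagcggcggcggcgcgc
CDC20 (chr1:43358821-43358980, + strand): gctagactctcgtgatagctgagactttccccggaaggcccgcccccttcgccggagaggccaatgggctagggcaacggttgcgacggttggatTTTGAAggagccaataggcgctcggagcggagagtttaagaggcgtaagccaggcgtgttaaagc
PLK1 (chr16:23678729-23678888, + strand): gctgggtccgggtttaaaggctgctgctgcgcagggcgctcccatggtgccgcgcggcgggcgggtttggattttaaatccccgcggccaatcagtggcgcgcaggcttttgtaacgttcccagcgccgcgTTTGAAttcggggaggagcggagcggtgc
CENPA (chr2:26785896-26786055, + strand): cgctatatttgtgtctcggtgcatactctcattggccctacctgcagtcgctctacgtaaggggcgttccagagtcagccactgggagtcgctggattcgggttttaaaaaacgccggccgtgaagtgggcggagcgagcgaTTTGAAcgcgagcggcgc
In MYBL2, the E2F core begins 39 bases before the start, and in RBL1 a pair of E2F forms begins 26 and 16 bases before it. Within the printed bases, the CHR begins 65, 29 and 18 bases before the start in CDC20, PLK1 and CENPA. The windows hold further matches upstream of the printed bases. CDC20 has another CHR 178 bases before the start, and RBL1 an E2F core at 210. CENPA also has an E2F form at 232 and a core at 230, and MCM6 a CHR at 246. CENPA and MCM6 thus hold elements of both kinds.

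An E2F core was held by 10 of the 15 windows of the member genes (66.7%), against 15.4% of all 35097 windows. The core was also held by 50% of the G1/S windows, 48.1% of the windows of p53 target genes, 35.7% of those of further E2F, pocket and MYB family genes and 26.3% of the G2/M windows, so it is not particular to the 10 genes. An E2F form was held by 3 of 15 (20%), in LIN52, RBL1 and TFDP1, against 3.32% of all windows, and a CHR by 5 of 15 (33.3%), in LIN9, LIN37, LIN54 and RBL2, against 16.4%. Among 38 windows of 29 G2/M genes, 25 held a CHR (65.8%) and 18 a MYB element (47.4%, against 19.7% of all windows), while 2 held an E2F form (5.26%) and 1 a forkhead element (2.63%, against 7.17%). Among 38 windows of 26 G1/S genes the order was turned, with an E2F form in 16 (42.1%) and a CHR in 2 (5.26%). The 10 genes stood between both lists for CHR. A match is a description of these letters and not of a bound site.

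**Figure D1:**
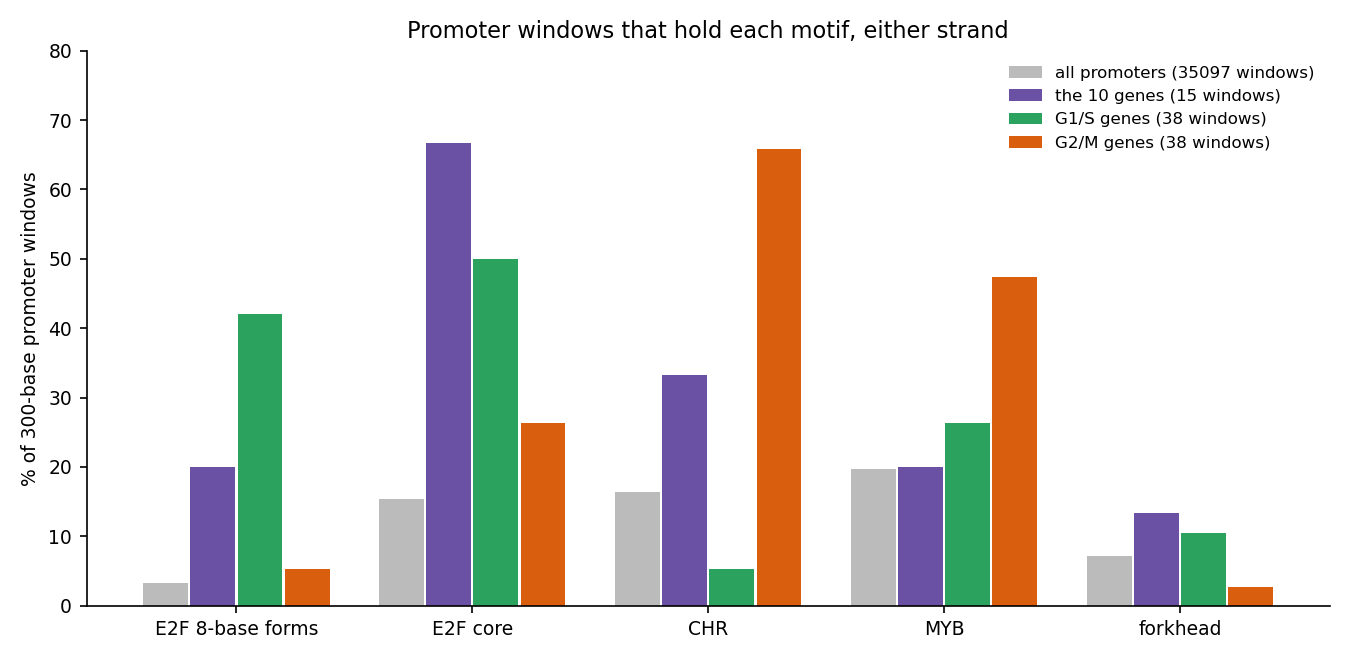
Share of 300-base RefSeq promoter windows (vertical axis, %) that hold each motif on either strand, for all promoters, the 10 genes, the G1/S genes and the G2/M genes. CHR stands highest in the G2/M genes at 65.8%, and the E2F core in the 10 genes at 66.7%.

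Levels within the complex spanned more than 2 orders of magnitude. Set per kb of annotated exon, MYBL2 was the most abundant in the untreated Scr libraries, at 124 ± 16.9 normalized CPM per kb (SD, n = 4 libraries), followed by FOXM1 at 66.7 ± 5.16. RBBP4, a histone chaperone that also serves other chromatin complexes, followed at 39.2 ± 1.83 and TFDP1 at 34.3 ± 2.06 normalized CPM per kb, and the ranges of these 2 overlapped. RBL2 stood at 11.6 ± 0.613 normalized CPM per kb. LIN52 (7.24 ± 0.491), LIN9 (7.16 ± 0.323), LIN54 (7.07 ± 0.928) and RBL1 (6.29 ± 0.437) formed a group in which each gene's range overlapped the next in order. LIN37, a core subunit needed for repression by DREAM, was last at 0.423 ± 0.14 normalized CPM per kb. The transcription factors that activate G2/M genes were thus several times as abundant per kb as any MuvB subunit but RBBP4. In all libraries LIN37 had between 12 and 42 reads, so its values are the least precise of the 10. AD000671.1 overlaps it on the same strand, and how reads in the shared stretch were counted was not examined. The counted level of LIN37 may therefore not be its true level. The span of more than 2 orders of magnitude rests on LIN37 alone. The other genes ran from 124 for MYBL2 to 6.29 for RBL1.

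**Figure D2:**
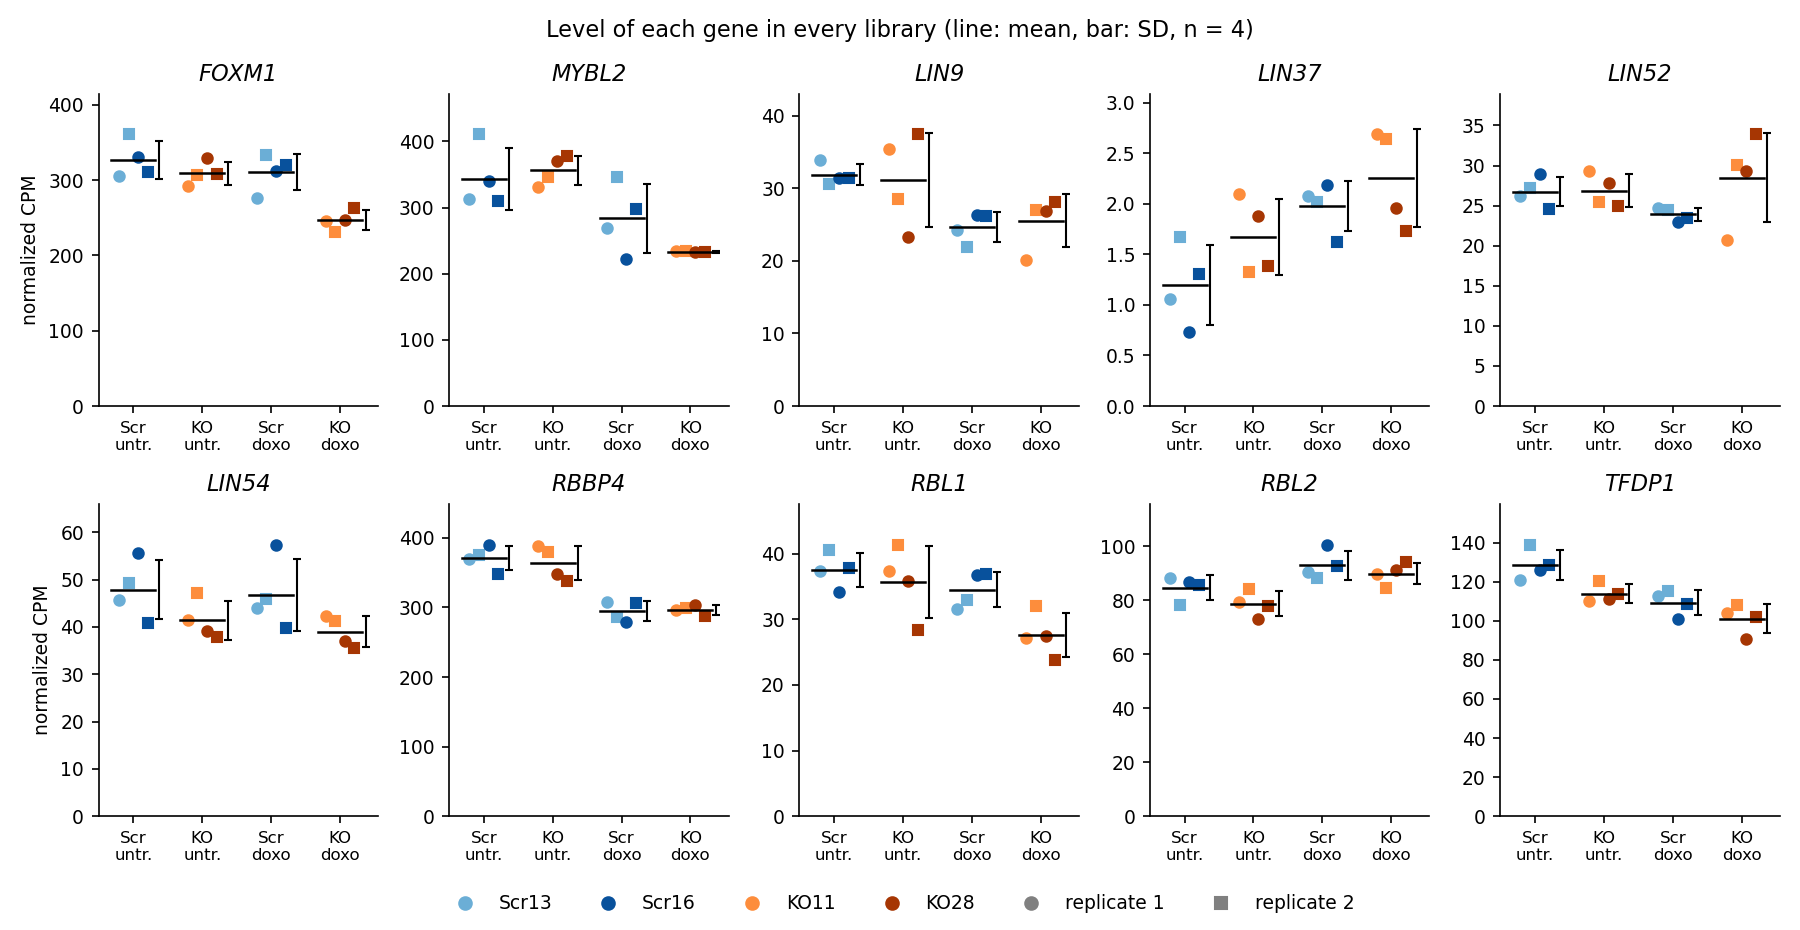
Normalized CPM (vertical axes, from 0) of each of the 10 genes in every library, with the groups on the horizontal axes, colours for clones and shapes for replicates; lines are means and bars SD (n = 4). MYBL2 lay between 232 and 234 in all 4 doxorubicin libraries labelled KO, and between 222 and 346 in the Scr libraries after doxorubicin.

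The first comparison asked how doxorubicin moved the complex within each genotype. In the Scr libraries, 3 of the 10 genes fell past the threshold (an adjusted p under 0.05 from limma's moderated test over all 14378 genes, Benjamini-Hochberg) and 0 rose, where 11.6% of all genes tested passed it and 4.94% did so with a fall. These were LIN9, RBBP4 and TFDP1. In the libraries labelled KO, 3 of the 10 again fell and 0 rose, where 17.5% of 14513 genes passed and 7.38% fell. These were MYBL2, FOXM1 and RBBP4. The median log2 fold change of the 10 genes was -0.13 in Scr and -0.22 in the libraries labelled KO, beside -0.012 and 0.015 over all genes tested. In bulk RNA, fewer cells in a cycle phase and less RNA per cell cannot be told apart.

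FOXM1 (ENSG00000111206, chromosome 12 from 2857681 to 2877155 on GRCh38, - strand) encodes a forkhead factor that drives G2/M genes. In the untreated Scr libraries it had 305 and 361 normalized CPM in Scr13 and 331 and 311 in Scr16, and after doxorubicin 277 and 333 in Scr13 and 312 and 320.4 in Scr16. These groups overlapped, with a log2 fold change of -0.07 (SE 0.073, adjusted p = 0.576, limma with Benjamini-Hochberg adjustment). In the libraries labelled KO it had 292 and 307 in KO11 and 329 and 309 in KO28 without treatment, and 246 and 231 in KO11 and 247 and 263.4 in KO28 after doxorubicin. All 4 treated libraries lay below all 4 untreated ones, with a log2 fold change of -0.32 (SE 0.072, adjusted p = 0.0024, limma with Benjamini-Hochberg adjustment; exact permutation p = 0.0286, the smallest that 4 against 4 libraries can give). RHNO1 and ITFG2 overlap FOXM1 on the opposite strand, and whether reads were counted by strand is not given in the sources used here.

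MYBL2 (ENSG00000101057, chromosome 20 from 43667019 to 43716496, + strand) encodes B-MYB, which binds the MuvB core from S phase on and is itself an E2F target. In Scr it had 313 and 411 normalized CPM in Scr13 and 341 and 309 in Scr16 without treatment, and 269 and 346 in Scr13 and 222 and 298 in Scr16 after doxorubicin. These groups overlapped, and the log2 fold change of -0.28 did not pass the threshold (SE 0.11, adjusted p = 0.110, limma with Benjamini-Hochberg adjustment). MYBL2 had, in the libraries labelled KO, 331 and 345 in KO11 and 371 and 378 in KO28 without treatment, and 234 in both of KO11 and 232 in both of KO28 after doxorubicin. The groups did not overlap, and the log2 fold change of -0.61 (SE 0.071, limma, Benjamini-Hochberg adjusted p = 9.8e-07) was the lowest of the 10 genes in either genotype. The fall to 0.656 of the untreated level held without either clone, at -0.69 without KO11 and -0.53 without KO28. In Scr, leaving out replicate 2 of Scr13 after doxorubicin gave a log2 fold change of -0.38 and an adjusted p of 0.0258 (limma with Benjamini-Hochberg adjustment).

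Of the 5 MuvB core genes, RBBP4 and LIN9 passed the threshold with doxorubicin in Scr and RBBP4 in the libraries labelled KO. RBBP4 (ENSG00000162521, chromosome 1 from 32651142 to 32686211, + strand) fell in both genotypes. In Scr it had 369 and 375 normalized CPM in Scr13 and 390.3 and 349 in Scr16 without treatment, and 308 and 286 in Scr13 and 279 and 306 in Scr16 after doxorubicin. Its levels in the libraries labelled KO were 389 and 380.0 in KO11 and 347 and 338 in KO28 without treatment, and 296 and 299 in KO11 and 303 and 287 in KO28 after doxorubicin. Within each genotype every treated library lay below every untreated one. The log2 fold change was -0.33 in Scr (SE 0.064, limma, Benjamini-Hochberg adjusted p = 0.0023) and -0.29 in the libraries labelled KO (SE 0.072, adjusted p = 0.0055, same test). SYNC overlaps RBBP4 on the opposite strand, and 6 pseudogenes are named after RBBP4. Its count may hold or lack reads that near-identical copies share.

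LIN9 (ENSG00000183814, chromosome 1 from 226231149 to 226309869, - strand) encodes the core subunit through which B-MYB is held. It had 33.9 and 30.6 normalized CPM in Scr13 and 31.4 in both libraries of Scr16 without treatment, and 24.2 and 22.0 in Scr13 and 26.3 and 26.2 in Scr16 after doxorubicin. The groups did not overlap, and the log2 fold change was -0.36 (SE 0.11, adjusted p = 0.0484, limma with Benjamini-Hochberg adjustment). This call was kept in 1 of 8 fits that each left out a library, that without replicate 1 of Scr16 after doxorubicin, and its adjusted p reached 0.149 without replicate 1 of untreated Scr13 (limma with Benjamini-Hochberg adjustment). It was kept in 5 of 10 other alternatives. The adjusted p was 0.0503 with clone as a fixed block, 0.0566 as a random block and 0.0982 with clone means (all limma). LIN9 ranged in the libraries labelled KO from 23.3 to 37.4 without treatment and from 20.1 to 28.1 after doxorubicin, with overlap and a log2 fold change of -0.27 (SE 0.15, adjusted p = 0.225, same test).

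LIN54, LIN52 and LIN37 did not pass the threshold in either genotype. LIN54 (ENSG00000189308, chromosome 4 from 82909973 to 83012926), the CHR-binding subunit, ranged from 35.6 to 57.4 normalized CPM over all libraries, with log2 fold changes of -0.04 (SE 0.12) in Scr and -0.08 (SE 0.11) in the libraries labelled KO. LIN52 (ENSG00000205659, chromosome 14 from 74084796 to 74201235), which links the core to the pocket proteins or to B-MYB, had log2 fold changes of -0.15 (SE 0.12) and 0.06 (SE 0.14). LIN37 (ENSG00000267796, chromosome 19 from 35748361 to 35754519) had means of 1.19 without treatment and 1.98 normalized CPM after doxorubicin in Scr and of 1.67 and 2.26 in the libraries labelled KO, and the groups overlapped, with log2 fold changes of 0.45 (SE 0.27, adjusted p = 0.304) and 0.28 (SE 0.26, adjusted p = 0.504, both limma with Benjamini-Hochberg adjustment).

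Neither pocket protein gene passed the threshold in either genotype. RBL1 (ENSG00000080839, chromosome 20 from 36996349 to 37095995, - strand) encodes p107, itself an E2F target, and had 37.4 and 41.4 normalized CPM in KO11 and 35.8 and 28.3 in KO28 without treatment. After doxorubicin it had 27.1 and 32.1 in KO11 and 27.5 and 23.8 in KO28, and the groups overlapped through replicate 2 of untreated KO28. The log2 fold change was -0.35 (SE 0.13, adjusted p = 0.0599, limma with Benjamini-Hochberg adjustment). It passed without that library (adjusted p = 0.00956) and without replicate 2 of KO11 after doxorubicin (adjusted p = 0.0379, both limma), and it also passed in edgeR (adjusted p = 0.0421) and DESeq2 (adjusted p = 0.0333). In Scr, RBL1 had 34.2 to 40.5 without treatment and 31.5 to 36.9 after doxorubicin, a log2 fold change of -0.12 (SE 0.10) that became 0.034 without clone Scr13.

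RBL2 (ENSG00000103479, chromosome 16 from 53433977 to 53491649, + strand) encodes p130, the pocket protein that prevails in resting cells, and AKTIP overlaps it on the opposite strand. It had 79.5 and 84.1 normalized CPM in KO11 and 73.1 and 78.0 in KO28 without treatment, and 89.6 and 84.6 in KO11 and 91.0 and 93.9 in KO28 after doxorubicin. All 4 treated libraries lay above all 4 untreated ones, and the log2 fold change of 0.19 (SE 0.082) reached an adjusted p of 0.120 (limma with Benjamini-Hochberg adjustment). In Scr it was 0.13 (SE 0.077, adjusted p = 0.304, same test). As a description chosen after the values were seen, the ratio of RBL2 to RBL1 per kb was 1.85 ± 0.208 in untreated Scr, 2.19 ± 0.123 in Scr after doxorubicin, 1.82 ± 0.282 in the untreated libraries labelled KO and 2.69 ± 0.435 in those after doxorubicin (SD, n = 4 each), with treated and untreated ranges that overlapped in both genotypes.

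TFDP1 (ENSG00000198176, chromosome 13 from 113584721 to 113641470, + strand) encodes DP1, the partner of both activating and repressing E2F factors. It had 121 and 139 normalized CPM in Scr13 and 126 and 128 in Scr16 without treatment, and 113 and 115 in Scr13 and 101 and 108 in Scr16 after doxorubicin. The groups did not overlap, with a log2 fold change of -0.23 (SE 0.074, adjusted p = 0.0499, limma with Benjamini-Hochberg adjustment). This value was at the threshold and was lost in each of the 8 fits that left out a library, with an adjusted p of up to 0.163 without replicate 2 of untreated Scr13 (limma with Benjamini-Hochberg adjustment). It was kept in 5 of 10 other alternatives. The adjusted p was 0.0538 by edgeR, 0.0592 with clone as a random block and 0.0803 with clone means (both limma). In the libraries labelled KO the groups did not overlap either, at -0.17 (SE 0.080, adjusted p = 0.149, same test). Counted over the 10 genes, the groups did not overlap for 3 in Scr and 5 in the libraries labelled KO, where 17.1% and 19.8% of all genes tested showed this.

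**Figure D3:**
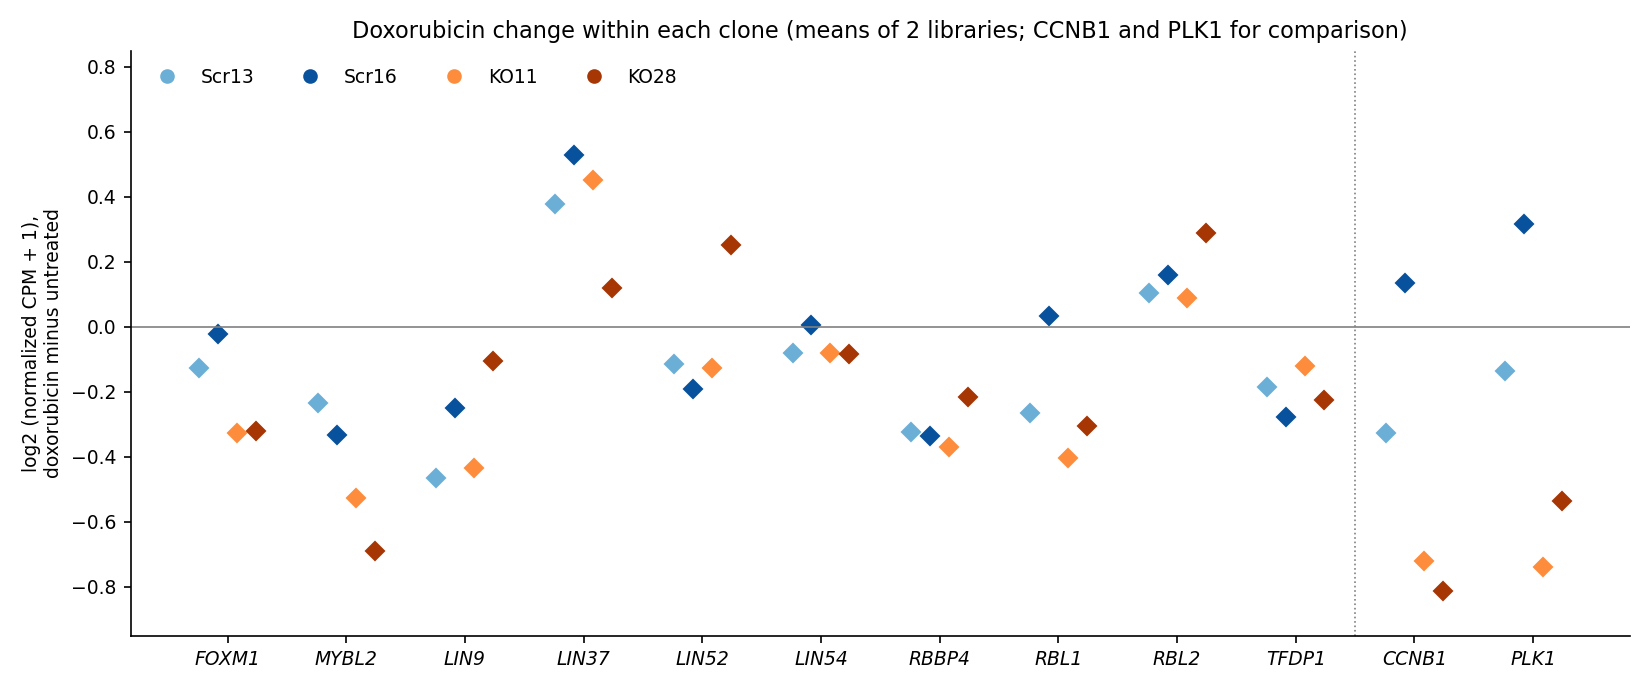
Log2 (normalized CPM + 1) after doxorubicin minus without treatment (vertical axis), as the difference of 2-library means within each clone, for the 10 genes and for CCNB1 and PLK1. FOXM1 lay at -0.33 in KO11, -0.32 in KO28, -0.13 in Scr13 and -0.02 in Scr16, and PLK1 at -0.74, -0.54, -0.14 and 0.32.

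The clones of a genotype were also read apart. The doxorubicin change of FOXM1 was -0.33 in KO11 and -0.32 in KO28, and -0.13 in Scr13 and -0.02 in Scr16, on the log2 scale. For MYBL2 it was -0.53 in KO11, -0.69 in KO28, -0.23 in Scr13 and -0.33 in Scr16. RBL2 was above 0 in all 4 clones, from 0.09 in KO11 to 0.29 in KO28. RBBP4 was below 0 in all 4, from -0.37 in KO11 to -0.21 in KO28. LIN52 was -0.13 in KO11 and 0.25 in KO28, a difference that was not tested. In KO11 its treated libraries (20.7 and 30.0 normalized CPM) lay on both sides of the untreated ones (29.3 and 25.5). With the clone KO11 left out, FOXM1 (adjusted p = 0.0851) and RBBP4 (adjusted p = 0.302, both limma with Benjamini-Hochberg adjustment) no longer passed the threshold in the libraries labelled KO, in a fit of 4 libraries. With either Scr clone left out, RBBP4 did not pass in Scr (adjusted p = 0.138 and 0.0682, same test).

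The next comparison asked whether the genotypes differed. Without treatment, 0 of the 10 genes differed past the threshold between the libraries labelled KO and Scr by limma, edgeR or DESeq2, where 4.84% of 14364 genes tested did by limma, and 1 of the 10 had an unadjusted p under 0.05, as 14.3% of all genes tested had. That gene was TFDP1, which had 110.0 and 121 normalized CPM in KO11 and 111 and 114 in KO28, below all 4 Scr libraries. Its log2 fold change was -0.17 (SE 0.073, adjusted p = 0.260, limma with Benjamini-Hochberg adjustment). The groups of 9.29% of all genes tested did not overlap. FOXM1 had means of 309 ± 15.04 in the libraries labelled KO and 327 ± 25.3 in Scr, and MYBL2 had 356 ± 22.0 and 343 ± 46.9 normalized CPM (SD, n = 4), differences within the spread between replicates.

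After doxorubicin, 1 of the 10 genes differed, which is close to the 8.69% of 14572 genes tested that passed (4.17% with a lower level), and 4 had an unadjusted p under 0.05 (20.3% of all genes). The groups did not overlap for 1 of the 10, against 13.2% of all genes tested. FOXM1 was lower in the libraries labelled KO, at 247 ± 13.1 against 311 ± 24.2 normalized CPM (SD, n = 4), with a log2 fold change of -0.33 (SE 0.075, adjusted p = 0.0060, limma with Benjamini-Hochberg adjustment). The highest library labelled KO stood at 263.4 and the lowest Scr library at 277. Leaving out clone KO11 gave an adjusted p of 0.150 and leaving out Scr16 one of 0.05003 (limma with Benjamini-Hochberg adjustment), with log2 fold changes of -0.28 and -0.30.

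MYBL2, RBL1 and LIN54 were the others with an unadjusted p under 0.05. MYBL2 had 233 ± 1.22 normalized CPM in the libraries labelled KO and 284 ± 51.9 in Scr (SD, n = 4), a log2 fold change of -0.26 (SE 0.097, adjusted p = 0.102, limma with Benjamini-Hochberg adjustment). The groups overlapped through replicate 1 of Scr16, at 222, the library with the fewest reads (10481177), and without it the log2 fold change was -0.38 and the adjusted p 0.0039 (limma with Benjamini-Hochberg adjustment). MYBL2 also passed by DESeq2 (adjusted p = 0.0419) and without clone Scr16 (log2 fold change -0.39, adjusted p = 0.0113, limma). RBL1 was at -0.32 (SE 0.12, adjusted p = 0.126) and LIN54 at -0.24 (SE 0.12, adjusted p = 0.238, both limma with Benjamini-Hochberg adjustment). RBBP4 stood at 296 ± 6.81 and 295 ± 14.6 normalized CPM, with a log2 fold change of 0.01 (SE 0.068). The remaining 5 genes had log2 fold changes from -0.11 for TFDP1 to 0.22 for LIN52.

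**Figure D4:**
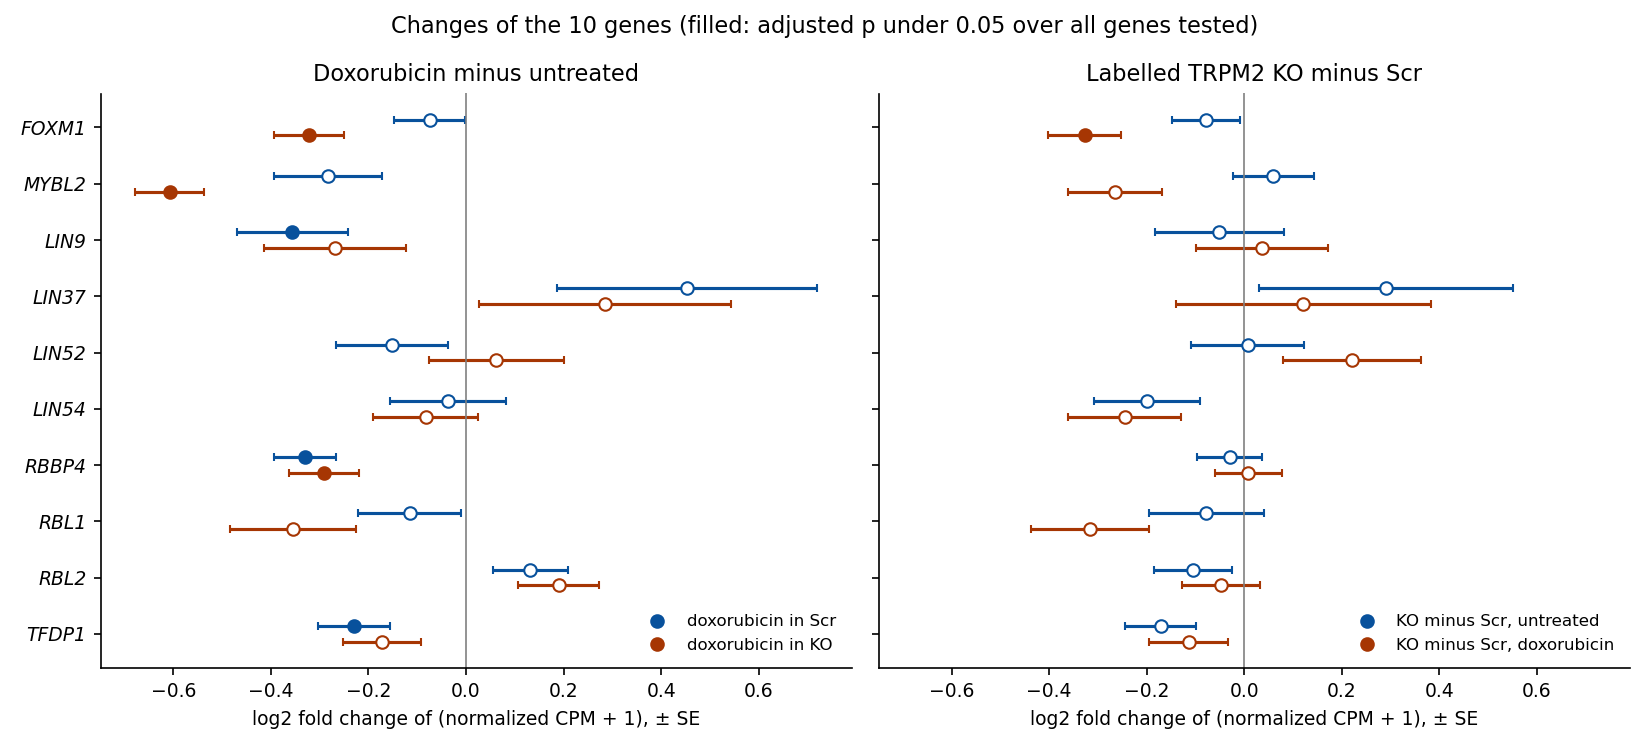
Log2 fold changes with SE (horizontal axes) of the 10 genes, left for doxorubicin against no treatment in Scr and in the libraries labelled KO, right for the libraries labelled KO against Scr without treatment and after doxorubicin; filled points passed an adjusted p of 0.05. MYBL2 at -0.61 and FOXM1 at -0.32 fell with doxorubicin in the libraries labelled KO, and FOXM1 at -0.33 is the filled point between genotypes after doxorubicin.

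Whether the doxorubicin change itself differed between the genotypes was tested as an interaction over all 16 libraries. None of the 10 genes passed the threshold (0 by limma, edgeR and DESeq2, where 0.0196% of 15325 genes passed by limma). FOXM1 was at -0.25 (SE 0.10, adjusted p = 0.567) and MYBL2 at -0.33 (SE 0.14, adjusted p = 0.573, both limma with Benjamini-Hochberg adjustment). These were the 2 genes of the 10 with an unadjusted p under 0.05, which 7.49% of all genes tested had. The calls of FOXM1 and MYBL2 in the libraries labelled KO and not in Scr are therefore not shown to differ between the genotypes. The comparisons within the libraries labelled KO and between genotypes after doxorubicin share the 4 treated libraries labelled KO.

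All gene lists were chosen with earlier results of these data known, so their counts beside all genes are descriptions and no independent support. Genes of the G2/M list, known targets of MuvB with B-MYB and FOXM1, fell with doxorubicin in the libraries labelled KO. Of 35 tested, 24 fell and 0 rose there, where 7.38% of all genes tested fell, with a median log2 fold change of -0.36 beside 0.015 over all genes. CDC20, the mitotic activator of the anaphase-promoting complex (-0.85, SE 0.12), the kinesin gene KIF20A (-0.70, SE 0.089) and BIRC5, which encodes survivin (-0.69, SE 0.087), fell furthest on the log2 scale. In Scr, 1 of 35 fell (BIRC5, -0.32, SE 0.070) and 0 rose, with a median of -0.027, where 4.94% of all genes tested fell. This count was 2 without replicate 2 of untreated Scr16, 3 without replicate 2 of Scr16 after doxorubicin and 0 without clone Scr13. CDC20 had 92.1 and 99.8 normalized CPM in KO11 and 119 and 137 in KO28 without treatment, and 48.7 and 66.7 in KO11 and 60.8 and 69.0 in KO28 after doxorubicin, with no overlap. With clone KO11 left out, 7 of the 35 fell past the threshold, in a fit of 4 libraries in which 924 genes passed in place of 2539.

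Between genotypes, 0 of the 35 G2/M genes differed without treatment by limma, edgeR or DESeq2 (5 at an unadjusted p under 0.05 by limma). Over all genes tested, 4.84% passed there and 14.3% had an unadjusted p under 0.05, both by limma. After doxorubicin, 24 of the 35 were lower in the libraries labelled KO, where 4.17% of all genes tested were. The median over the 35 was -0.40 on the log2 scale beside 0.014 over all genes. The lowest log2 fold changes were those of CENPA, the centromere histone (-0.77, SE 0.11), UBE2C, the ubiquitin carrier of the anaphase-promoting complex (-0.59, SE 0.092), and KIF20A (-0.58, SE 0.11). CENPA had 25.6 and 26.5 normalized CPM in KO11 and 25.6 and 28.2 in KO28, against 42.8 and 41.1 in Scr13 and 51.4 and 48.4 in Scr16, with no overlap. Without clone KO11, 14 of the 35 passed after doxorubicin, and the untreated count was 1 without replicate 1 of KO11, without replicate 2 of Scr16 or without clone KO11. The interaction of genotype and doxorubicin passed for 0 of 35 by limma and edgeR and for 2 by DESeq2. Its median was -0.33 beside 0.024 over all genes, and 22 of the 35 had an unadjusted p under 0.05 by limma. Over all genes tested, 0.0196% passed the interaction by limma and 7.49% had an unadjusted p under 0.05. These comparisons share the 4 treated libraries labelled KO.

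The G1/S list, known targets of E2F and of repression by DREAM, fell in both genotypes. Of 30 tested, 20 fell in Scr (median log2 fold change -0.41) and 24 in the libraries labelled KO (median -0.50), and 0 rose in either, where 4.94% and 7.38% of all genes tested fell and their medians were -0.012 and 0.015. In Scr, MCM5 (-0.77, SE 0.11), UHRF1 (-0.71, SE 0.11) and MCM6 (-0.71, SE 0.069) fell furthest, and in the libraries labelled KO it was MCM6 (-1.02, SE 0.080), UHRF1 (-0.96, SE 0.097) and MCM5 (-0.93, SE 0.082). MCM5 and MCM6 are subunits of the replicative helicase, and UHRF1 guides DNA methylation at replication. MCM6 had 216 and 215 normalized CPM in Scr13 and 234 and 239.6 in Scr16 without treatment, and 137 and 145 in Scr13 and 128 and 142 in Scr16 after doxorubicin. In the libraries labelled KO it had 204 and 203 in KO11 and 199.6 and 184 in KO28 without treatment, and 87.0 and 108 in KO11 and 99.2 and 93.3 in KO28 after doxorubicin. Treated and untreated libraries did not overlap in either genotype. Without clone Scr13 6, without Scr16 9 and with no filter 13 of the 30 passed in Scr.

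Between genotypes, MCM2, another helicase subunit gene, was the 1 G1/S gene of 30 that differed without treatment (-0.75, SE 0.071, lower in the libraries labelled KO). Of all genes tested, 4.84% passed without treatment. After doxorubicin 9 of 30 were lower, where 4.17% of all genes tested were, with a median of -0.20 beside 0.014 over all genes, and MCM2 (-0.93, SE 0.084), CHAF1A (-0.51, SE 0.085), which encodes a chromatin assembly factor, and MCM6 (-0.51, SE 0.082) had the lowest log2 fold changes. This count was 5 without replicate 2 of Scr13 after doxorubicin, 3 without clone KO11, 4 without clone KO28 and 4 with no filter. The interaction passed for 0 of 30 by limma and edgeR and for 1 by DESeq2, with 6 at an unadjusted p under 0.05 by limma. Over all genes tested, 0.0196% passed it by limma and 7.49% had an unadjusted p under 0.05.

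**Figure D5:**
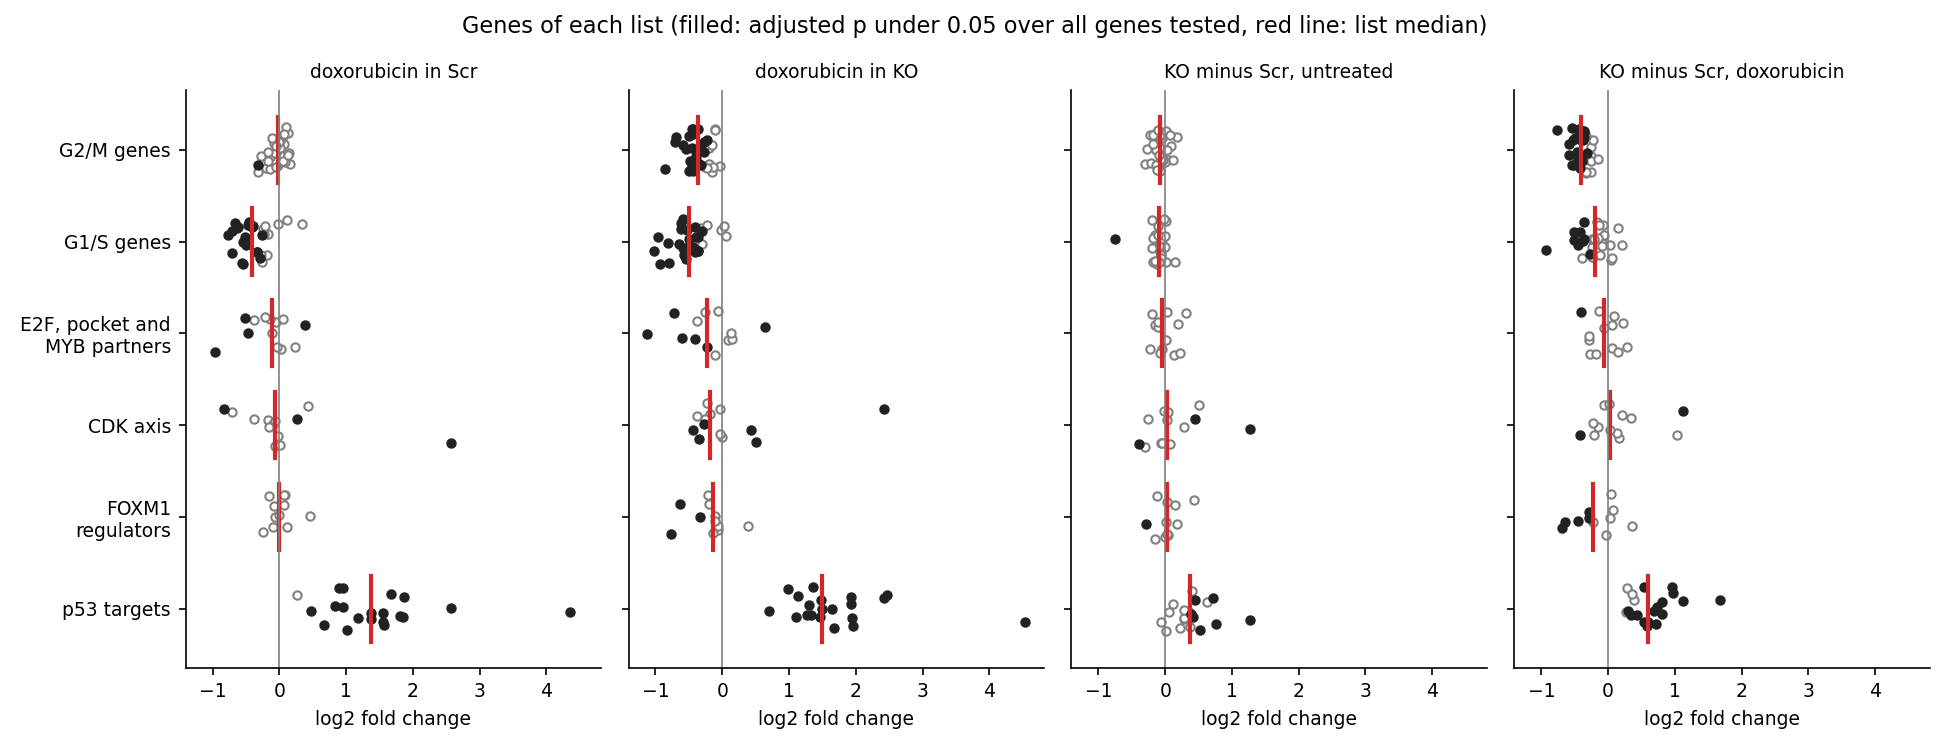
Log2 fold changes (horizontal axes) of the genes of 6 lists in 4 comparisons, 1 panel each; filled points passed an adjusted p of 0.05 over all genes tested and red lines are list medians. The G2/M median is -0.03 for doxorubicin in Scr and -0.36 in the libraries labelled KO, and the G1/S medians are -0.41 and -0.50.

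Among 13 further E2F, pocket and MYB family genes, 4 passed the threshold with doxorubicin in Scr, where 11.6% of all genes tested did, and 6 in the libraries labelled KO, where 17.5% did. In Scr, MYB (-0.96, SE 0.22), E2F1 (-0.52, SE 0.11) and E2F2 (-0.47, SE 0.10) fell and E2F7, a repressor and p53 target, rose (0.39, SE 0.12), though the call of E2F7 was kept in 1 of 8 fits that left out a library, that without replicate 1 of Scr16 after doxorubicin (adjusted p up to 0.129, limma). E2F3, another activating E2F gene, did not pass there (-0.11, SE 0.070). Of the 13, 5 fell in the libraries labelled KO, with MYB (-1.12, SE 0.19), E2F2 (-0.72, SE 0.10) and E2F1 (-0.61, SE 0.095) furthest, while E2F7 rose (0.64, SE 0.12). The other 2 that fell, E2F3 (-0.24, SE 0.076) and the repressor gene E2F8 (-0.41, SE 0.14), each kept the call in 2 of 8 fits that left out a library, E2F3 without replicate 1 of KO11 of either treatment and E2F8 without replicate 2 of untreated KO28 or replicate 1 of KO28 after doxorubicin. E2F4, the E2F of the DREAM complex, had log2 fold changes of -0.05 (SE 0.093) and -0.07 (SE 0.097), and RB1, the retinoblastoma gene, of 0.06 (SE 0.078) and 0.13 (SE 0.078), none past the threshold. Without treatment 0 of 13 differed between genotypes by limma, edgeR or DESeq2, with 2 at an unadjusted p under 0.05 by limma. Over all genes tested, 4.84% passed there and 14.3% had an unadjusted p under 0.05, both by limma. E2F1 passed once replicate 2 of untreated KO28 was left out (adjusted p = 0.0416, limma). After doxorubicin E2F2 was lower in the libraries labelled KO (-0.41, SE 0.12), 1 of 13 where 8.69% of all genes tested passed, a call lost in 4 of 8 fits that left out a library, those without replicate 2 of KO11, replicate 1 of KO28, replicate 2 of Scr13 or replicate 2 of Scr16. E2F1 (-0.29, SE 0.12, adjusted p = 0.160) passed without replicate 1 of Scr16 (adjusted p = 0.0050, both limma with Benjamini-Hochberg adjustment).

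Of the cyclin-dependent kinase genes, their partners and their inhibitors, 13 of 16 were tested. CDKN1A rose with doxorubicin in Scr (2.58, SE 0.13) and in the libraries labelled KO (2.43, SE 0.082), and it was higher in the libraries labelled KO without treatment (1.27, SE 0.14) and after doxorubicin (1.13, SE 0.076). Its means were 57.0 ± 15.2 normalized CPM in untreated Scr, 136 ± 16.5 in the untreated libraries labelled KO, 337 ± 25.1 in Scr after doxorubicin and 736 ± 45.3 in the libraries labelled KO after doxorubicin (SD, n = 4). CDKN1B, which encodes the inhibitor p27, rose in Scr (0.27, SE 0.076) and in the libraries labelled KO (0.51, SE 0.083), where CDKN2D, another inhibitor gene, was at 0.43 (SE 0.15). The call of CDKN1B in Scr was lost in 4 of 8 fits that left out a library (without replicate 2 of Scr13 or replicate 1 of Scr16 after doxorubicin, or either replicate of untreated Scr16). CDKN2D passed at an adjusted p of 0.0485 (limma) and kept the call in 1 of 8 such fits, that without replicate 1 of untreated KO11, and in 3 of 10 other alternatives. CDKN1B was lower in the libraries labelled KO without treatment (-0.39, SE 0.082). CCNE2, which encodes a cyclin of G1/S, fell in Scr (-0.82, SE 0.18), and the kinase genes CDK4 (-0.43, SE 0.081) and CDK2 (-0.27, SE 0.086) and the inhibitor gene CDKN2C (-0.34, SE 0.089) fell in the libraries labelled KO. The call of CDK2 was kept in 3 of 8 fits that left out a library, those without replicate 2 of KO11 of either treatment or replicate 2 of untreated KO28. CDK6 was higher in the libraries labelled KO without treatment (0.44, SE 0.094), and CDKN2C was lower there after doxorubicin (-0.42, SE 0.098). DYRK1A, which encodes the LIN52 kinase, had log2 fold changes between -0.04 and 0.04 in the 4 comparisons, none past the threshold.

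With doxorubicin in Scr, 0 of 11 regulators of FOXM1 protein passed by limma and edgeR and 1 by DESeq2. By limma, 1 had an unadjusted p under 0.05. Over all 14378 genes tested, 11.6% passed by limma and 3644 had an unadjusted p under 0.05. In the Scr libraries CCNB1 was at -0.09 (SE 0.11) and PLK1 at 0.09 (SE 0.11), over clones that differed (CCNB1 -0.33 in Scr13 and 0.14 in Scr16, PLK1 -0.14 and 0.32). Of the 11, 3 fell in the libraries labelled KO, where 7.38% of all genes tested fell. These were CCNB1 (-0.77, SE 0.10) and CCNA2 (-0.34, SE 0.079), which encode cyclins B1 and A2, and PLK1 (-0.64, SE 0.10), which encodes a mitotic kinase. The interaction passed for 0 of 11 by limma and edgeR and for 2 by DESeq2, PLK1 (adjusted p = 0.0111 by DESeq2 and 0.126 by limma) and CCNB1 (adjusted p = 0.0347 by DESeq2 and 0.1404 by limma). Over all genes tested, 0.0196% passed it by limma. PLK1 also passed in limma with clone as a fixed block (adjusted p = 0.0294), and without clone Scr13 both PLK1 (adjusted p = 0.0333) and CCNB1 (adjusted p = 0.0428) passed in limma. CDK1, which encodes the kinase partner of both cyclins, did not pass in Scr (0.06, SE 0.078) or in the libraries labelled KO (-0.07, SE 0.091). FOXO3, a forkhead factor that opposes FOXM1, was lower in the libraries labelled KO without treatment (-0.29, SE 0.072) and after doxorubicin (-0.45, SE 0.085). After doxorubicin PLK1 (-0.69, SE 0.12), CCNB1 (-0.65, SE 0.13), CCNA2 (-0.29, SE 0.078) and CDK1 (-0.28, SE 0.087) were lower too, 5 of 11 in all by limma, where 4.17% of all genes tested were lower, and 4 by edgeR (CDK1, adjusted p = 0.0524). With a library left out, the call of CCNA2 was kept in 3 of 8 fits (without replicate 2 of KO11, replicate 1 of Scr13 or replicate 1 of Scr16) and that of CDK1 in 1 of 8 (without replicate 2 of KO11). The untreated call of FOXO3 was lost in 3 of 8, those without replicate 2 of KO11, replicate 1 of KO28 or replicate 1 of Scr13. CCNB1, PLK1, CCNA2 and CDK1 are themselves known MuvB or FOXM1 targets and were kept out of the G2/M list.

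The p53 target genes rose in both genotypes, 19 of 20 in Scr (median log2 fold change 1.38) and 20 of 20 in the libraries labelled KO (median 1.49), where 11.6% and 17.5% of all genes tested passed in either direction, with GDF15, a stress cytokine gene, furthest (4.36, SE 0.21 in Scr and 4.53, SE 0.15 in the libraries labelled KO). FAS was tested in Scr through the treated libraries alone, since no untreated one reached 1 normalized CPM, and without it the count was 18 of 19 (median 1.37). Next came CDKN1A and BBC3 (1.86, SE 0.13) in Scr, and FAS (2.46, SE 0.24) and CDKN1A in the libraries labelled KO, and BBC3 and FAS are genes of apoptosis. Without treatment, 7 of 19 were higher in the libraries labelled KO than in Scr, where 4.84% of all genes tested passed in either direction. CDKN1A, BBC3 (0.77, SE 0.16) and BTG2 (0.71, SE 0.14) were in front. After doxorubicin 16 of 20 were higher, where 8.69% of all genes tested passed in either direction. TP53I3 (1.67, SE 0.16), CDKN1A and RRM2B (0.97, SE 0.12) were then in front. CDKN1A is counted in this list and among the kinase inhibitors.

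The genes whose levels ran most like those of FOXM1 over the 16 libraries, among 10051 genes with a mean of at least 10 normalized CPM, were ESPL1 (Pearson r = 0.931), KIF18B (0.920), CACNG4 (0.918), GTSE1 (0.918) and SPAG5 (0.896). ESPL1 encodes separase, and KIF18B, GTSE1 and SPAG5 act at the mitotic spindle, while CACNG4 is a channel subunit gene. For MYBL2 they were DAZAP1 (0.938), SAPCD2 (0.921), MCM7 (0.917), DNMT1 (0.916) and SHC3 (0.915), of which MCM7 is a helicase subunit and DNMT1 the maintenance DNA methyltransferase. FOXM1 and MYBL2 correlated at r = 0.797, rank 98 of FOXM1's list, and RBL2 stood opposite to MYBL2 (r = -0.765). These values describe 16 points of 4 clones and 2 treatments that share their libraries, and they carry no test.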

How the data were processed

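The libraries were made from poly(A) RNA with a directional kit. According to the submitters' processing notes, reads were handled with bcl2fastq, HISAT2 2.1.0 (GRCh38), HTSeq and edgeR, and the use of strand in counting is not given in the sources used here. The deposited library values are a signal, reads scaled by the authors to an effective library size (normalized CPM), in a table per treatment. Whole reads were recovered for 100% of the values within 0.001 reads. The deposited tables also hold the authors' p-values and q-values, the log2 fold changes of their comparison of genotypes and, as another deposited column, a ranking, none of which was used. All columns of single libraries were assigned, and 0 were left over. The factors of both tables together differed by at most 1.02% from those of a joint TMM normalization over 16 libraries, so treatments were compared on the deposited values. Libraries held 10481177 to 25086085 reads on genes (median 16037366.5), and a count of 0 allows up to 3 reads, 0.118 to 0.285 normalized CPM by library.

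Groups were compared by limma 3.58.1 (R 4.3.3), trended by abundance, after adding 1 to the normalized CPM and taking log2, 4 libraries against 4. A gene was tested where 4 or more libraries of the fit reached 1 normalized CPM. P-values were adjusted over all genes tested with the Benjamini-Hochberg method at 0.05, and fold changes on this scale understate changes of low genes. The study's methods name edgeR, which was used as an alternative on recovered reads because the deposited values are not counts. Both libraries of a clone count as replicates, so that p-values measure the spread between libraries of 2 clones per genotype, which may be technical in part. Single genes were also compared with two-sided exact permutation tests. The steps were tested on simulated data with changed genes of known size, a log2 change of 1. For the interaction 59.2% of the changed genes were recovered, and 77.7% to 84.5% in the other comparisons. False calls made up 5.20% to 7.94% of calls, in each comparison above the 5% aimed at. Changes as small as those of FOXM1 and MYBL2 in the interaction were not simulated.

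The members and gene lists were chosen with earlier results of these data known. Named are the 10 members in every comparison, TRPM2, and from each list up to 3 of the largest rises and falls among calls, with E2F1, E2F2, E2F4, RB1, CDKN1A, CCNB1, PLK1, CDK1 and DYRK1A, and the 5 genes most like FOXM1 and MYBL2. TP53I3's interaction and other genes outside this rule were picked with their values in view. The gene names come from the files' identifiers (95.0% matched) and positions from GENCODE 29. Promoters are RefSeq windows on GRCh38.p14. Alternatives covered no filter, other pseudocounts, edgeR 4.0.16 quasi-likelihood, DESeq2 1.42.0, library size alone, a replicate block, clone as a block, clone means, and each library or clone left out.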

Additional observations from a re-analysis of the deposited data

Results flagged for a closer look

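LIN9 stood at 20.1 normalized CPM in replicate 1 of KO11 after doxorubicin, far below the other 3 libraries of its group at 26.8, 27.0 and 28.1. PLK1 stood at 117 normalized CPM in replicate 1 of untreated KO11, against 139, 139 and 139.7 in the other 3. These were 2 of 80 groups of 4 libraries examined for a single distant value (20 genes in 4 groups), and chance gives such a value in about 5% of groups. TP53I3, a p53 target gene, rose with doxorubicin by a log2 fold change 1.66 higher in the libraries labelled KO than in Scr (SE 0.23, adjusted p = 6.6e-04 for the interaction, limma with Benjamini-Hochberg adjustment). It had 77.4 and 67.8 normalized CPM in KO11 and 54.9 and 65.2 in KO28 after doxorubicin, and at most 23.6 in any Scr library.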

How the results depend on the processing

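For doxorubicin in Scr the count of 3 members past the threshold became 1 with no filter, 1 with clone as a random block and 1 with clone means, and 0 without clone Scr13 and 0 without clone Scr16 (1 to 2 with a library left out). It was 2 by edgeR, where TFDP1 was lost. TFDP1 was also lost with a pseudocount of 0.5, and LIN9 with a pseudocount of 5 and with clone as a fixed block. For doxorubicin in the libraries labelled KO it was 3, with 1 without clone KO11, 3 to 4 with a library left out, and 4 by edgeR, DESeq2, library size alone and clone as a fixed block, where RBL1 passed too. Between genotypes after doxorubicin it was 1, with 2 by DESeq2 and 0 without clone KO11 (1 to 2 with a library left out), and it was 0 under all alternatives run without treatment and for the interaction. With the replicate block the counts were 3 in Scr, 3 in the libraries labelled KO, 0 without treatment, 1 after doxorubicin and 0 for the interaction. The deviations of same-numbered replicates correlated at r from -0.143 to 0.222 (median 0.0486), with 10 of 28 pairs over 0.1, so the number was not read as a pairing. Over all genes, leaving out the filter gave 857 in place of 1669 genes in Scr, 368 in place of 695 between untreated genotypes, and DESeq2 gave 31 in place of 3 for the interaction. Leaving out a library gave as few as 1081 in Scr (without replicate 1 of Scr13 after doxorubicin) and 814 in place of 1266 between genotypes after doxorubicin (without replicate 1 of KO11). Leaving out a clone gave 234 (Scr13) and 737 (Scr16) in Scr, 924 in place of 2539 in the libraries labelled KO (KO11), 333 to 803 between untreated genotypes and 538 (KO11) to 1227 after doxorubicin, so the background shares move with the libraries.

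Of 1120 alternative log2 fold changes of the members, 1037 kept direction and side of the threshold, 10 passed it newly, 35 lost it and 38 changed sign, in 16 comparisons of a member with a log2 fold change of at most 0.12 in size. Most of the 1120 had no call to lose. Calls were 3 with doxorubicin in Scr, 3 in the libraries labelled KO and 1 between genotypes after doxorubicin. All 35 losses fell on these calls, for LIN9, TFDP1, RBBP4 and FOXM1. The 1037 therefore say little about how stable the calls are. With doxorubicin, LIN54 in Scr became 0.0047 and RBL1 in Scr 0.034 without clone Scr13, and LIN52 in the libraries labelled KO -0.13 without KO28. Without treatment, MYBL2 became -0.012 without Scr16 and -0.014 without KO28, LIN52 -0.0055 with library size alone and -0.019 without KO11, RBBP4 0.053 and RBL1 0.071 without KO28. After doxorubicin, LIN9 became -0.054 without Scr13 and -0.078 without KO28, LIN37 -0.061 without KO11, RBBP4 -0.010 with library size alone and -0.0033 without Scr16, and RBL2 0.0090 without Scr16. For the interaction, LIN9 became -0.020 without Scr13 and -0.077 without KO28, RBBP4 -0.038 and RBL2 -0.041 without KO28. With a library left out, ranges that crossed 0 were -0.14 to 0.037 for LIN54 with doxorubicin in Scr, -0.026 to 0.20 for LIN52 with doxorubicin in the libraries labelled KO, -0.14 to 0.076 for LIN9, -0.034 to 0.044 for LIN52, -0.063 to 0.0041 for RBBP4 and -0.15 to 0.027 for RBL1 between untreated genotypes, -0.016 to 0.14 for LIN9 and -0.017 to 0.031 for RBBP4 after doxorubicin, and -0.039 to 0.19 for LIN9 and -0.12 to 0.056 for LIN54 in the interaction. The cause of these changes was not tested, beyond the smaller number of libraries in fits that left some out. LIN37, with at most 42 reads, is the member that depth limits most.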
